A study of Mus musculus with 2 samples.

Results

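The mitosis genes are 35 genes whose products start, drive or end cell division, chosen by name: every non-control probe of the array that carries one of the 35 symbols, or an older synonym such as Cdc2a for Cdk1, was taken. They had 51 probes, 23 genes with 1 probe and 12 with several, among 39429 non-control probes and 22803 named genes. Liver RNA of C57BL/6 mice was hybridised to 2 Agilent 2-colour arrays, 1 for wild-type and 1 for AID transgenic mice. On each array the Cy5 channel held liver RNA of mice that had drunk water with thioacetamide for 6 months, and the Cy3 channel liver RNA of untreated mice of that genotype. AID, activation-induced cytidine deaminase, edits antibody genes in B cells, and thioacetamide is a liver toxin used to produce fibrosis in rodents. The promoter of the transgene, the number of mice behind each channel, their age and their sex were not stated in the labels used here. The 4 samples are called below the untreated and treated wild-type livers and the untreated and treated AID livers. Each genotype had 1 array and dyes were not swapped, so differences come without replicates and without p-values, and treatment and dye cannot be told apart.

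Most hepatocytes of the adult liver rest outside the cell cycle, and they re-enter it after loss of tissue or toxic injury. Mitosis genes are transcribed late in the cycle: cyclin B with the kinase CDK1 starts mitosis, polo-like and Aurora kinases build the spindle, the spindle checkpoint holds the anaphase-promoting complex until chromosomes are attached, and a central spindle guides cytokinesis. In resting cells a repressor complex called DREAM keeps many of these promoters silent through the cell cycle genes homology region (CHR), and in dividing cells complexes with B-MYB and FOXM1 act at the same element, often beside CCAAT boxes bound by NF-Y. In bulk tissue, a change in the number of dividing cells and a change in RNA per cell cannot be told apart.

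That shared promoter element was visible in the RefSeq sequences of the genes (assembly GRCm38.p6, windows from 250 bases before to 50 after each annotated start). A promoter was found for 29 of the 35 genes. Ccna2, Foxm1, Aurkb, Tpx2, Stmn1 and Kif20a had none in the table. The 7 stretches printed here run from 150 bases before the start to 50 after it, 5′ to 3′ on the strand of the gene. They show Cdc20 (chr4:118437294-118437493, minus strand), Cdca3 (chr6:124830026-124830225, plus), Mki67 (chr7:135716330-135716529, minus), Plk1 (chr7:122159285-122159484, plus) and Ccnb2 (chr9:70421505-70421704, minus), which were among the genes with the highest treatment ratios in wild-type mice. They also show Cdk1 (chr10:69352863-69353062, minus) and Kif23 (chr9:61946750-61946949, minus), which carry the same letters and had log2 ratios of 0.19 and 0.06 in wild-type. Both ratios are weakly measured. Kif23 was not well above background in either untreated liver, and the probes of Cdk1 ranged from -0.08 to 0.48 in wild-type. Capitals mark the CHR letters TTTGAA and the CCAAT box, or their reverse complements (TTCAAA and ATTGG).
Cdc20: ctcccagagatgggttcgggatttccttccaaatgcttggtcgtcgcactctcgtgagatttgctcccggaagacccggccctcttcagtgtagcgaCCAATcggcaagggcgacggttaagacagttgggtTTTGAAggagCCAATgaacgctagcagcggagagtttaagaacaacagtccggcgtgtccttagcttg
Cdca3: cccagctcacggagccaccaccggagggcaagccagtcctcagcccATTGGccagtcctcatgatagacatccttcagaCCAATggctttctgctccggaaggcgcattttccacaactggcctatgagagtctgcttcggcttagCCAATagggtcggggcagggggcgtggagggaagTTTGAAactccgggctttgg
Mki67: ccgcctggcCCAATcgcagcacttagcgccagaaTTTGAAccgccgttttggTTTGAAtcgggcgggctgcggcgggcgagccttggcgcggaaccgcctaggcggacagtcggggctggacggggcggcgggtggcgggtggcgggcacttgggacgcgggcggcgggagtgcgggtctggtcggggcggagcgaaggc
Plk1: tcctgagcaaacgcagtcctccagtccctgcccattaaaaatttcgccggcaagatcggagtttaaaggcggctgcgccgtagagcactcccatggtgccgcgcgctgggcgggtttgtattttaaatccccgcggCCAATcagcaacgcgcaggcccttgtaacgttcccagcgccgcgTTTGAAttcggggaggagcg
Ccnb2: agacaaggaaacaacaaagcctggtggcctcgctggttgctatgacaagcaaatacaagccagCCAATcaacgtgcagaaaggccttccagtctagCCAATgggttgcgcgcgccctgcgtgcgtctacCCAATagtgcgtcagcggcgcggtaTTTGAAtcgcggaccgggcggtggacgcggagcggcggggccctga
Cdk1: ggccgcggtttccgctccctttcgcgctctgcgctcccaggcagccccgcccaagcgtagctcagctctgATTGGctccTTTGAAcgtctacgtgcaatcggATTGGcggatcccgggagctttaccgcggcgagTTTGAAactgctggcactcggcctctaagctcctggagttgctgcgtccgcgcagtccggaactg
Kif23: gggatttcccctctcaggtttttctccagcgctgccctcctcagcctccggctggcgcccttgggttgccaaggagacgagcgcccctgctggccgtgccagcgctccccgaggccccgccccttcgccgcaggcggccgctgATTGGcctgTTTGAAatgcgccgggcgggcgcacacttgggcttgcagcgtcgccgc

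TTTGAA, read on both strands, occurred in 22 of the 29 promoters (75.9%), against 20.2% of all 27025 genes with a window of the same length. It began within 50 bases of the start in 19 (65.5%), against 5.72% of all genes. CCAAT occurred in 24 (82.8% against 41.1%) and at least 2 times in 17 (58.6% against 13.3%). Both sets of letters stood in the same window in 20 genes (69.0% against 7.97%). The variant TTTAAA was found in 8 promoters (27.6% against 14.9%), and the E2F letters TTCCCGC or TTGGCGC in 4 (13.8% against 7.79%). Genes with and without TTTGAA had similar wild-type medians. This split leaves the variant aside: Birc5, Ccnb1 and Cenpe, without TTTGAA, carry TTTAAA. Stmn1 and Kif20a, at least 2-fold higher in wild-type, had no window and fall in neither group. The 22 genes with TTTGAA had a median log2 ratio of 0.55 in wild-type (from -0.06 to 2.27) and of 0.39 in AID mice, and the 7 without it 0.56 (from 0.17 to 1.16) and 0.28. No filter on dim spots was used here. The 22 include Ttk and Cenpf (the lowest, -0.06), not well above background in any liver, and Kif2c, not so on the AID array. The 7 include Bub1, also not well above background on the AID array. These matches are descriptions of the letters and show no binding.

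**Figure D1:**
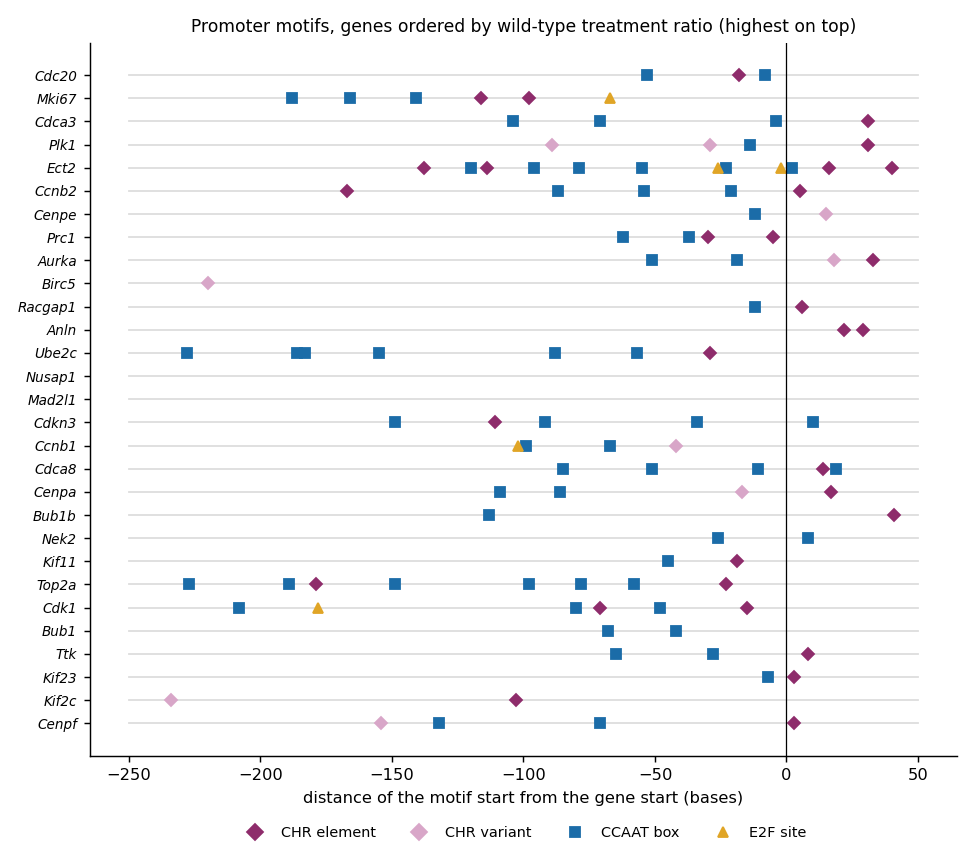
Positions of TTTGAA (CHR element), TTTAAA (CHR variant), CCAAT and E2F letters in the promoters of 29 mitosis genes, on either strand, against the distance in bases of the motif start from the annotated gene start. Genes are ordered by their wild-type treatment ratio, with the highest on top; TTTGAA lies within 50 bases of the start in 19 of them, at the top and at the bottom of the order.

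Levels are given as normalized log2 intensity, which compares livers for 1 gene but not genes with each other, and ratios as log2 of treated over untreated. After ± stands an error that the scanner software gave for its log2 ratio, which is technical, concerns the spots and is not a spread between mice. It belongs to the software's own ratio, whereas the ratios printed here were processed otherwise and are compressed for dim genes. Ect2 in wild-type, for example, had 1.53 here and 3.29 in the software's ratio. Calling a ratio within or beyond this error thus compares sizes from unlike scales and is no test. Over the 35 genes this error had a median of 0.32 in wild-type and 0.34 in AID mice. A gene counted as measured in a comparison when 1 or more of the channels compared had a probe of it well above background, and as higher or lower when it differed by 2-fold or more, a log2 value of 1 or -1. A probe was well above background for 20 of the 35 genes in the untreated wild-type liver, 32 in the treated wild-type liver, 14 in the untreated AID liver and 30 in the treated AID liver. For 14 genes this held in all 4 livers, and Ttk, Aurkb and Cenpf were not well above background in any. Ccna2, Cdkn3, Nek2, Bub1, Bub1b, Top2a, Cenpe, Kif11, Kif2c, Nusap1, Kif23 and Ect2 were not so in either untreated liver. Ccnb1, Cdk1, Plk1, Kif20a, Prc1 and Anln were so in the untreated wild-type but not in the untreated AID liver. Counted by probe, 26 of 51 were so in the untreated wild-type liver and 45 in the treated one, against 55.1% and 67.8% of all non-control probes. In the untreated and treated AID livers 17 and 42 were, against 53.0% and 68.0%. Over all non-control spots, the share well above background was 56.0% and 53.9% in Cy3, and 68.4% and 68.8% in Cy5.

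The livers also differed in other transcripts. Xist, the RNA of the inactive X chromosome, exceeded its level in the untreated wild-type liver at least 6.18-fold in the treated one, and there the Y-linked genes Ddx3y and Eif2s3y were at least 17.6-fold and 32.1-fold lower. Neither channel of the AID array had Xist well above background, and Ddx3y and Eif2s3y had log2 ratios of -0.11 and -0.05. This difference accompanies the wild-type ratio and each comparison with the treated wild-type liver, and its part in the results was not tested. All 7 hepatocyte markers were well above background in all 4 livers, with a summed intensity between 663843 and 721105. The sum of 7 macrophage markers was 25672 in the treated AID liver and between 11180 and 11978 in the other 3. That of 6 stellate cell markers was 1615 in the untreated and 2692 in the treated wild-type liver, and 2619 and 1517 in the untreated and treated AID livers. The sum of 6 cholangiocyte markers ranged from 708 to 983, of 6 endothelial markers from 8182 to 10148, of 7 T cell markers from 2714 to 3763, of 5 B cell markers from 440 to 686, of 5 neutrophil markers from 2628 to 3159 and of 5 erythroblast markers from 29877 to 41812. Of the erythroblast markers 4 of 5 were well above background in all 4 livers, all but Rhag, as were 4 of 5 neutrophil markers, all but Mpo. Of the B cell markers 1 of 5 was in each untreated liver and 4 of 5, all but Pax5, in each treated liver. Within a list the measured markers differed, given here as lowest to highest log2 ratio, first in wild-type and then in AID mice. Hepatocyte markers had -1.79 to 0.60 and -1.84 to 0.46, and stellate cell markers -0.32 to 1.60 and -1.89 to 0.06. Macrophage markers had -0.16 to 0.20 and -0.003 to 1.48. For erythroblast markers these were -2.33 (Alas2) to -0.04 and -0.19 to 0.12. For neutrophil markers they were -0.51 to 0.225 and -0.22 to 1.60 (S100a9), and for B cell markers 0.05 to 0.77 and 0.14 to 1.12 (Cd79b). No measured cholangiocyte, endothelial or T cell marker reached 2-fold. The part of these cells in the results was not tested.

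Treated wild-type liver had higher levels of mitosis genes from several steps of division, mitotic entry, the spindle, anaphase and cytokinesis among them. At least 2-fold higher were 10 of the 35 genes and 0 were lower, where 1.86% of all 16663 measured genes were higher and 1.64% lower. The 10 were Cdc20, Mki67, Cdca3, Plk1, Ect2, Stmn1, Ccnb2, Kif20a, Cenpe and Prc1. With no filter on dim spots, 34 of the 35 ratios were above 0 with a median of 0.56, against a median of 0.01 and 51.7% above 0 over all 22803 genes. With median centring in place of loess, 26 of the 35 were above 0, against 53.9% of all genes. The count at 2-fold was then 13, where 10.38% of all measured genes were higher. It was 19 with a background offset of 0 in place of 50, where 4.69% were higher. With the scanner software's processed signals it was 26, where 9.46% were. The exception, Cenpf, had no level well above background.

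In AID mice the same ratios pointed the same way and were mostly smaller. 1 gene, Cdc20, was at least 2-fold higher and 0 were lower, where 1.22% of 16693 measured genes were higher and 0.947% lower. With no filter, 33 of 35 ratios were above 0 and the median was 0.35, against 0.01 and 51.5% above 0 over all genes. With median centring 24 of 35 were above 0, against 53.65% of all genes. The count at 2-fold was 9 with an offset of 0 (3.71% of all measured genes), 21 with processed signals (9.09%) and 6 with median centring (8.14%). The exceptions were Aurkb, not well above background, and Kif23 at -0.01 ± 0.86. Over the 30 genes measured on both arrays, the 2 ratios correlated with a Pearson r of 0.921 and a Spearman rho of 0.913, as a description of genes that share their livers, their arrays and the direction of the dyes. Of these 30, 27 had the higher ratio on the wild-type array.

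**Figure D2:**
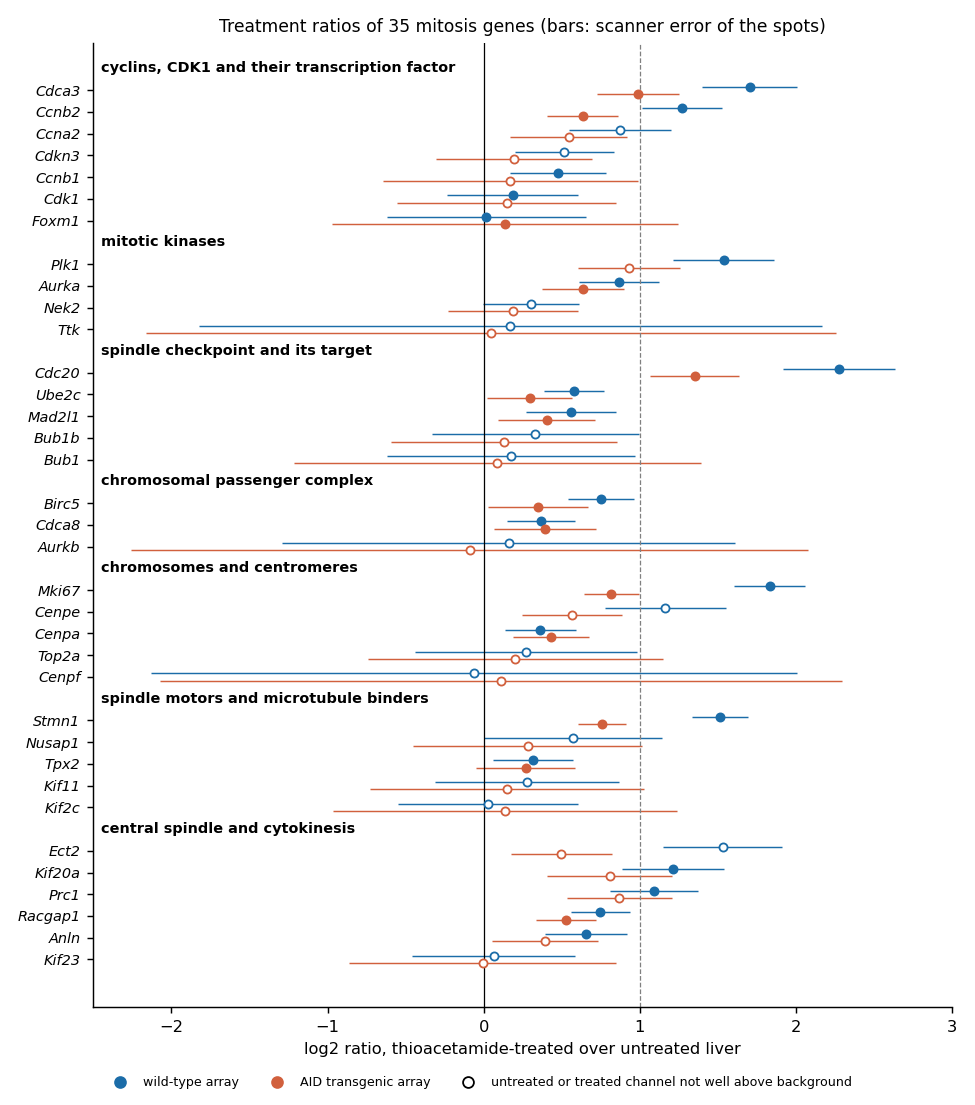
Log2 ratio of treated over untreated liver for each of the 35 mitosis genes by role, on the wild-type array (blue) and the AID transgenic array (red). Bars are the scanner software's error of the spots, open points have a channel with no probe well above background, and the dashed line marks 2-fold; 10 blue points and 1 red point lie past it, and for 27 of the 30 genes measured on both arrays the blue point is the higher.

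Cdc20 had the highest treatment ratio of the 35 on both arrays. It encodes the activator that the spindle checkpoint holds back and that sends securin and cyclin B to the anaphase-promoting complex. Its probe (chr4:118105534-118105593, mm9, the array's build) read 7.16 in the untreated and 9.43 in the treated wild-type liver, and 7.10 and 8.45 in the untreated and treated AID livers. The untreated livers were thus close to each other and both treated livers were above them. The ratio was 2.27 ± 0.36 (4.83-fold) in wild-type and 1.35 ± 0.28 (2.55-fold) in AID mice. The other checkpoint genes had smaller ratios. Mad2l1, which binds Cdc20 in the checkpoint complex, had 0.56 ± 0.29 and 0.40 ± 0.31, with an SD of 0.48 and 0.47 over its 3 probes. The probe at chr6:66490836-66490895 (mm9), well above background in every liver, had 1.11 ± 0.25 in wild-type, past 2-fold, and 0.85 ± 0.23 in AID mice. The other Mad2l1 probes were not well above background in either untreated liver. They had 0.32 and 0.24 in wild-type, and 0.45 and -0.09 in AID mice. Ube2c, the ubiquitin-conjugating enzyme of the anaphase-promoting complex, had 0.58 ± 0.19 and 0.29 ± 0.27. The checkpoint kinase Bub1 and the related Bub1b had 0.17 ± 0.80 and 0.33 ± 0.66 in wild-type, within their errors, and neither was well above background in an untreated liver.

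Of the cyclins, CDK1 and the factors around them, 2 of 7 were at least 2-fold higher in wild-type and 0 in AID mice. Ccnb2, a B-type cyclin of mitotic entry (chr9:70255671-70255730, mm9), read 7.54 and 8.80 in the untreated and treated wild-type livers and 7.34 and 7.98 in the AID livers. Its ratio was 1.27 ± 0.26 in wild-type and 0.63 ± 0.23 in AID mice. Cdca3, which encodes a trigger of mitotic entry that helps degrade the kinase WEE1 (chr6:124783233-124783292, mm9), read 7.25 and 8.95 in wild-type (1.70 ± 0.30) and read 6.97 and 7.95 in AID mice (0.99 ± 0.26). For both genes the order from low to high was untreated AID, untreated wild-type, treated AID and treated wild-type liver. Ccna2, the cyclin of S phase and early mitosis, had 0.87 ± 0.32 in wild-type and 0.55 ± 0.37 in AID mice, from untreated levels that were not well above background. Ccnb1, the other main B-type cyclin, had 0.47 ± 0.31 over 3 probes (SD 0.26) and 0.17 ± 0.81. The kinase gene Cdk1 itself had 0.19 ± 0.42 and 0.15 ± 0.70, and its 3 probes ranged from -0.08 to 0.48 in wild-type. The phosphatase gene Cdkn3 had 0.52 ± 0.32 and 0.19 ± 0.50, also from untreated levels not well above background. Foxm1, the transcription factor of the late cell cycle, read 6.68 and 6.70 in the wild-type livers and 6.38 and 6.52 in the AID livers, with ratios of 0.02 ± 0.63 and 0.14 ± 1.11. Only 1 of its 2 probes was well above background in any liver.

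Among the mitotic kinases, Plk1, the polo-like kinase of mitotic entry and spindle assembly, was at least 2-fold higher in wild-type. Its probe (chr7:129313220-129313279, mm9) read 6.71 and 8.25 in the wild-type livers and 6.56 and 7.49 in the AID livers. The ratio was 1.54 ± 0.32 in wild-type and 0.93 ± 0.33 in AID mice, where the untreated level was not well above background and the fold is at least 1.90. Aurka, the Aurora kinase of the centrosomes, had 0.87 ± 0.25 and 0.64 ± 0.26, beyond its error on both arrays and below 2-fold. Nek2, a kinase of centrosome separation, had 0.30 ± 0.31 and 0.19 ± 0.42, from untreated levels not well above background. Ttk, the checkpoint kinase MPS1, was not well above background in any liver.

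Chromosome and centromere genes divided into a pair with 2-fold ratios and a pair without. Mki67, which encodes the coat protein of mitotic chromosomes known as the proliferation marker Ki-67, read 7.06 and 8.89 in the untreated and treated wild-type livers and 7.16 and 7.98 in the AID livers. Its 2 probes (chr7:142881591-142881650 and chr7:142884764-142884823, mm9) gave nearly the same ratio in wild-type, 1.84 and 1.82, and 0.89 and 0.75 in AID mice. The gene's ratio was 1.83 ± 0.23 in wild-type and 0.82 ± 0.18 in AID mice. Cenpe, the kinesin that carries chromosomes to the spindle equator, read 6.62 and 7.78 in the wild-type livers and 6.67 and 7.24 in the AID livers. Its untreated levels were not well above background, so it was at least 2.24-fold higher in wild-type (log2 1.16 ± 0.39) and at least 1.48-fold higher in AID mice (0.57 ± 0.32). The centromeric histone gene Cenpa had 0.36 ± 0.23 and 0.43 ± 0.24, 1 of 5 genes with the higher ratio in AID mice. The topoisomerase gene Top2a had 0.27 ± 0.71 and 0.20 ± 0.94, within its errors. Cenpf, of the outer kinetochore, was not well above background.

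Of the chromosomal passenger complex, which corrects the attachment of chromosomes and then moves to the midzone, 0 of 3 genes reached 2-fold in either genotype. Birc5, its survivin subunit, had 0.75 ± 0.21 in wild-type and 0.35 ± 0.32 in AID mice, but its 3 probes did not give the same value. The probe at chr11:117716978-117717037 (mm9), well above background in all 4 livers, had 1.55 and 0.76, whereas the other 2 had 0.53 and 0.17 in wild-type. Cdca8, its borealin subunit, had 0.37 ± 0.22 and 0.39 ± 0.32, from a pair of probes at 0.92 and -0.19 in wild-type. The kinase subunit Aurkb was not well above background in any liver.

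Of 5 spindle motors and microtubule binders, Stmn1 alone reached 2-fold in wild-type and none did in AID mice. Stmn1 encodes stathmin, a protein that frees tubulin from microtubules. It read 9.44 and 10.95 in the untreated and treated wild-type livers and 9.44 and 10.20 in the AID livers. The untreated livers were equal to 2 decimals and each treated liver was higher. Its ratio was 1.51 ± 0.18 in wild-type and 0.76 ± 0.15 in AID mice, and both of its probes (chr4:134029355-134029414 and chr4:134029695-134029754, mm9) were higher on both arrays. Tpx2, the activator of Aurora A on the spindle, had 0.32 ± 0.26 and 0.27 ± 0.32, but its 2 probes had 0.88 and -0.25 in wild-type. Nusap1, which bundles microtubules near chromosomes, had 0.57 ± 0.57 and 0.28 ± 0.73, from untreated levels not well above background. The bipolar spindle kinesin gene Kif11 had 0.28 ± 0.59 in wild-type and the microtubule depolymerising kinesin gene Kif2c 0.03 ± 0.58, both within their errors.

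The central spindle and cytokinesis genes held 3 of the 10 genes at 2-fold in wild-type. Ect2, the exchange factor that activates RhoA at the division plane (chr3:26996278-26996337, mm9), read 6.62 and 8.14 in the wild-type livers and 6.65 and 7.14 in the AID livers. Its untreated levels were not well above background, so it was higher at least 2.89-fold in wild-type (log2 1.53 ± 0.38) and at least 1.41-fold in AID mice (0.50 ± 0.32). Kif20a, the kinesin that brings regulators to the midzone, had 1.21 ± 0.33 in wild-type and 0.81 ± 0.40 in AID mice. Prc1, which crosslinks the microtubules of the midzone (chr7:87461048-87461107, mm9), read 6.94 and 8.03 in the wild-type livers and 6.56 and 7.43 in the AID livers. Its ratios were 1.09 ± 0.28 and 0.87 ± 0.34, the latter at least 1.82-fold, since its untreated AID level was not well above background. Racgap1, which forms the centralspindlin complex with the kinesin Kif23, had 0.75 ± 0.19 and 0.53 ± 0.19, beyond its error on both arrays. Kif23 had 0.06 ± 0.52 and -0.01 ± 0.86, from untreated levels that were not well above background. The actin ring scaffold gene Anln had 0.65 ± 0.26 and 0.39 ± 0.34, with an untreated AID level not well above background.

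**Figure D3:**
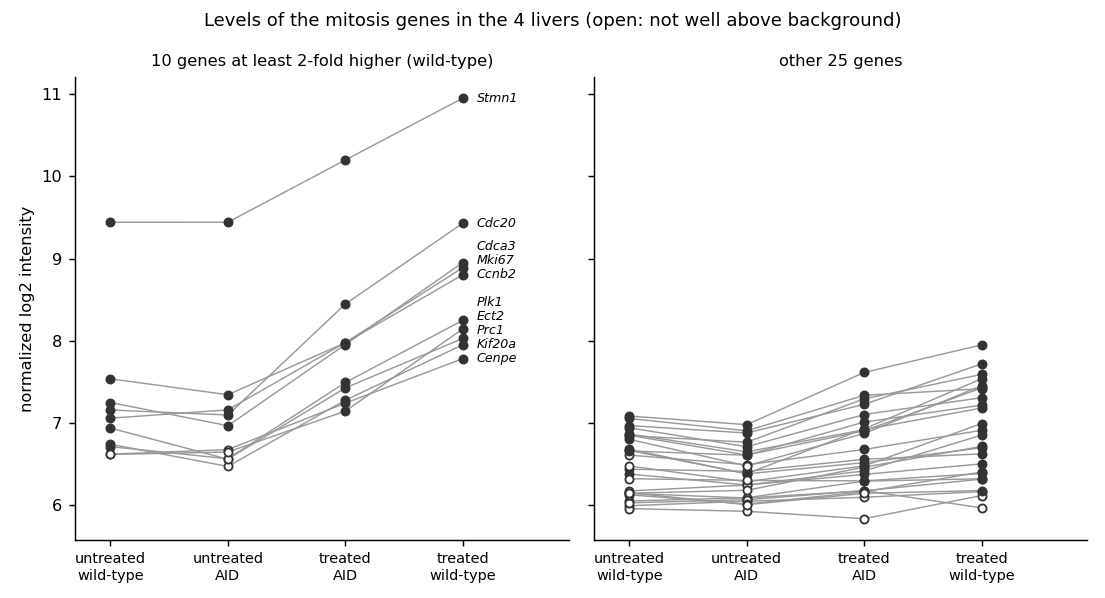
Normalized log2 intensity of each mitosis gene in the 4 livers, with a line per gene; open points are levels with no probe well above background. The 10 genes at least 2-fold higher in wild-type (left) and the other 25 (right) had their highest level in the treated wild-type liver, except Cenpf.

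The difference of the treatment ratios, AID transgenic minus wild-type, addresses whether the response differed between the genotypes. Of the 35 genes 2 were lower by at least 2-fold and 0 higher, where 1.05% of 17107 measured genes were lower and 0.929% higher. They were Mki67 at -1.01 ± 0.29 and Ect2 at -1.03 ± 0.50, where ± combines the errors of both arrays, both close to the 2-fold line. Mki67 was well above background in all 4 livers. Ect2 was so in the treated livers alone, so both of its ratios are lower bounds and the size of their difference is not determined. Next in size were Cdc20 at -0.92 ± 0.46, Stmn1 at -0.75 ± 0.24, Cdca3 at -0.72 ± 0.40, Ccnb2 at -0.64 ± 0.34, and Plk1 at -0.61 ± 0.46, all beyond the error of their spots. Of these, Plk1 was not well above background in the untreated AID liver. Prc1 at -0.22 ± 0.44 and Kif20a at -0.41 ± 0.52, not well above background there either, were within the error. With no filter, 30 of the 35 differences were below 0 and 5 above, with a median of -0.23, against -0.00 and 49.6% above 0 over all genes. The 5 above 0 were Cenpf at 0.17, Foxm1 at 0.12, Kif2c at 0.11, Cenpa at 0.07 and Cdca8 at 0.03, each smaller than its error. As there was 1 array per genotype, whether the difference exceeds the spread between mice was not tested.

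**Figure D4:**
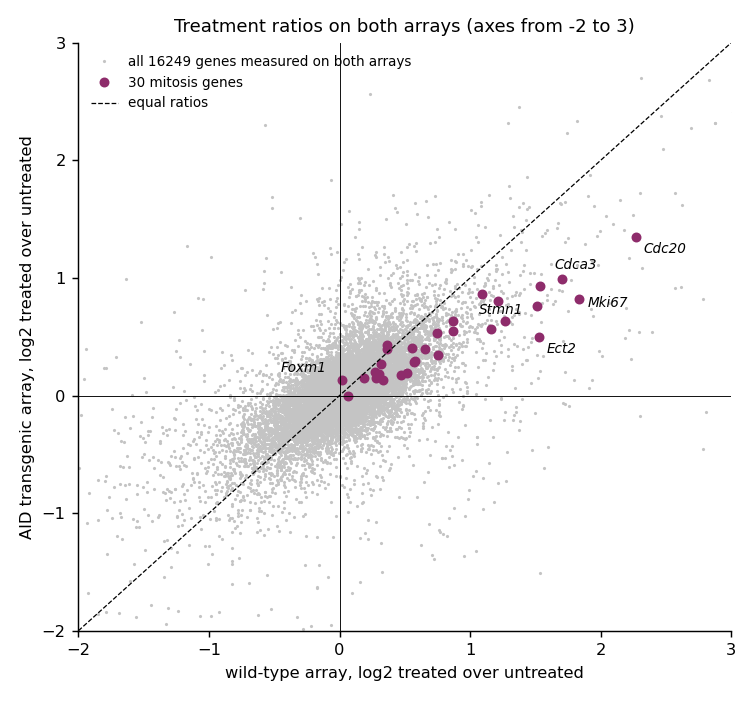
Log2 treatment ratio on the wild-type array (x axis) against that on the AID transgenic array (y axis) for 16249 genes measured on both arrays (grey) and for the 30 mitosis genes among them (purple), with axes from -2 to 3 and genes beyond them not drawn. All 30 lie above 0 on the x axis, and 27 lie below the dashed line of equal ratios.

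Levels were also set across the arrays, for the untreated and for the treated livers. Between the untreated livers, AID transgenic over wild-type, 20 of the 35 genes were measured. The rest had no probe well above background in either untreated liver. Of the 20, 0 were 2-fold higher or lower, where 0.308% and 0.294% of 14297 measured genes were. At such shares a count of 0 is no particular result. 26 of the 35 lay below 0 with no filter, and the median was -0.11, against -0.00 and 49.5% above 0 over all genes. Between the treated livers 1 gene, Ect2 at -1.001 and well above background in both, was 2-fold lower and 0 were higher, where 0.761% and 0.732% of 17079 measured genes were. Cdca3, at -0.999, was just short of 2-fold, and Cdc20 had -0.98, Mki67 -0.91, Ccnb2 -0.83, Plk1 -0.76 and Stmn1 -0.75. 34 of the 35 lay below 0 with no filter, with a median of -0.30, against -0.00 and 48.9% above 0 over all genes. These comparisons, unlike the ratios within an array, set 1 channel of an array against the same channel of the other.

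Other genes of the cell cycle, from lists of genes that are not among the 35, had smaller median ratios. These medians are over measured genes and lean upward, since a gene can be measured through its treated channel alone. Of 60 other mitosis genes 49 were measured in wild-type, 3 of them 2-fold higher and 0 lower, with a median of 0.37 against 0.03 for all measured genes. In AID mice 47 were measured, 2 higher and 0 lower, with a median of 0.32. The 3 were Gtse1, a regulator of p53 and microtubules (1.59 in wild-type, 0.81 in AID mice), the chromokinesin Kif22 (1.20 and 1.11) and Incenp, the scaffold of the chromosomal passenger complex (1.20 and 1.06). The last pair had nearly equal ratios in both genotypes. The other mitosis genes had a median difference between the genotypes of -0.11, and 0 of 49 were 2-fold lower or higher.

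Genes of the G1 to S transition and DNA replication lay closer to 0: of 33 measured in wild-type 1 was higher and 1 lower, with a median of 0.26, and of 32 in AID mice 0 and 1, with a median of 0.15. The higher one was E2f8, an E2F family repressor (1.20 in wild-type, 0.34 in AID mice). The lower one, on both arrays, was the replication initiation gene Mcm10 (-1.78 and -1.35), measured by 1 probe. Among 15 G1 cyclins, CDK inhibitors and pocket proteins 4 were higher in wild-type and 1 in AID mice. Ccnd1, cyclin D1 of G1 entry, had 2.78 and 0.82. Of the inhibitors, Cdkn1a had 1.67 and 1.47 with an SD over its 2 probes of 2.44 and 1.77, Cdkn2c 1.36 and 0.42, and Cdkn1c 1.24 and -0.02. The difference between the genotypes was at least 2-fold for Ccnd1 (-1.96) and Cdkn1c (-1.26). Of 10 regulators of mitosis gene transcription, 0 were 2-fold higher or lower on either array, with medians of 0.07 and 0.15. They include Mybl2, which encodes B-MYB (0.42 and 0.46), Lin9 of the DREAM core (0.31 and 0.42) and the NF-Y subunit gene Nfyb (0.72 and 0.36). Of 15 genes of the anaphase-promoting complex and its inhibitors 0 were 2-fold higher or lower, with medians of 0.12 and 0.13.

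**Figure D5:**
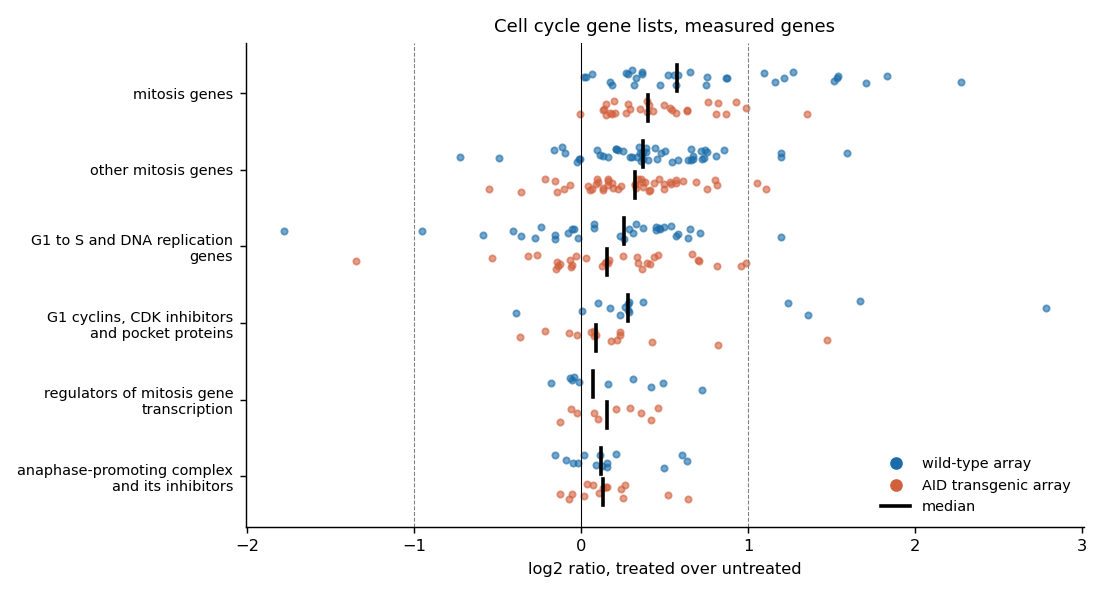
Log2 treatment ratio of each measured gene of the mitosis genes and of 5 other cell cycle lists, on the wild-type (blue) and the AID transgenic array (red); black bars are medians and dashed lines mark 2-fold. The medians of the mitosis genes, 0.57 and 0.40 over 32 and 30 measured genes, stand to the right of those of the other lists, whose medians range from 0.07 to 0.37.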

How the data were processed

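Total liver RNA of 2 genotypes was measured on 2 Agilent 2-colour arrays (design 026655, build mm9, per the file headers). The deposited mean signals and background medians are intensity values as scanned, and the processed signals are intensity after background subtraction and dye normalization by the authors' scanner software, per the file headers. The log ratio the authors deposited is log10 of Cy5 over Cy3 processed signal, and the authors' value table equalled it on all 44397 features (tolerance 0), with column medians of 0. It was exactly 0 on 7232 and 8692 spots. The error they deposited with it is a score from the software's error model, in log10 units, converted here to log2. The file headers name Feature Extraction 10.7.3.1, the submitters' processing notes 10.5.1.1.

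Here normexp (offset 50) was applied to the mean signals and background medians, which were then loess-normalized within arrays in limma 3.58.1 (R 4.3.3), with Aquantile between arrays for levels. This was tested on simulated data in which only brighter spots were changed. How well ratios are recovered at the low signals of most mitosis genes was not tested. The 1377 control spots per array and 197 and 207 outlier spots were left out. Spots of a probe, then probes of a gene, were averaged. Across 399 probes with 10 spots the SD of the log2 ratio had a median of 0.07 on either array. Of 39429 probes, 26004 were named by RefSeq accession (GRCm38.p6), 3195 by symbol, 930 by synonym and 51 by the member names, and 9249 had no match. Later steps used Python 3.11.15, numpy 2.4.6, pandas 2.3.3 and matplotlib 3.10.9. Probe positions are those of the array file; whether a probe lies in a coding exon or a UTR was not analysed here. A fold against a channel not well above background is written "at least N-fold", taken against that channel's own level or its lowest level well above background, whichever was higher, and is open to dye bias. It leaves out the error of the spots, and where the channel's own level was the higher it equals the plain ratio, as for Cenpe and Ect2.

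The members and the gene lists were chosen with earlier results of these data known. With 1 array per genotype, differences were described by size alone. All 35 genes are named. 1 marker gene of another cell type is not reported here and was left out of its list. Genes of other lists are named at 2-fold in a treatment ratio or for their role, the latter chosen after their values were seen. The alternatives were an offset of 0, processed signals, the deposited log ratio, median centring, detection in every channel, outlier spots kept, the brightest probe and no normalization between arrays.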

Additional observations from a re-analysis of the deposited data

How the results depend on the processing

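No direction of a count or median of the mitosis genes reversed under the alternatives. The 10 genes at 2-fold in wild-type stayed there in each of the 6 or 7 settings that measured them (Cdc20 from 2.27 to 3.17, Prc1 from 1.09 to 1.92), as did Cdc20 in AID mice. No setting lowered any of these values at 2 decimals, so their staying does not test the 2-fold calls. An offset of 0, processed signals and median centring raised all of them, and keeping outlier spots left them as they were. For a gene with 1 probe, the brightest probe and detection in every channel leave the value as it was. For these 10 genes the deposited log ratio repeated the values of the processed signals. In the difference, Mki67 had -0.95 with its brightest probe, and detection in every channel removed Ect2, whose untreated levels were not well above background. The offset compresses ratios of low signals. With an offset of 0, 19 measured genes were higher in wild-type (median 1.08) and 9 in AID mice (0.83), the untreated livers had a median of -0.29, and 4 were lower between the treated livers (-0.68). With processed signals these were 26 (1.62) and 21 (1.37), with 8 lower in the difference (-0.57), 2 lower between the untreated (-0.38) and 14 between the treated livers (-0.89). The deposited log ratio gave 26 (1.62), 21 (1.37) and 7 lower (-0.57). Median centring without loess gave 13 higher in wild-type (median 0.71), 6 higher in AID mice, a difference of -0.40 and 3 lower between the treated livers and in the difference. It moved the median of all measured genes to 0.35 in wild-type and 0.34 in AID mice, so the mitosis genes lay 0.36 and 0.07 above it, and with no filter 26 and 24 of the 35 ratios were above 0. Genes higher and lower over the whole array were 310 and 274 in wild-type and 203 and 158 in AID mice, but 1729 and 102, and 1358 and 53, with median centring, 782 and 406, and 620 and 269, with an offset of 0, and 1576 and 605, and 1518 and 474, with processed signals. Detection in every channel left 20 genes in wild-type (0.98), 14 in AID mice (0.68), 1 lower in the difference (-0.32) and a median of -0.48 between the treated livers. The brightest probe gave 0.87, 0.52, 1 lower in the difference and -0.52 between the treated livers. Without normalization between arrays the untreated median was -0.25, with 4 lower between the treated livers (-0.46). Keeping outlier spots moved no count of mitosis genes. No paired analysis was possible because each genotype had 1 array. Signal over background limits the ratios: 15 of the 35 were not well above background in the untreated wild-type liver and 21 in the untreated AID liver.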
